A study of Mus musculus with 8 samples.

Results

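The imprinted growth genes described here are a list of 10 members named by symbol: Igf2, H19, Igf2r, Dlk1, Meg3, Peg3, Cdkn1c, Grb10, Mest and Plagl1. All 10 are rows of the deposited table of 22558 genes, and all reached an FPKM (fragments per kilobase of transcript scaled to library size) of 1 in at least 1 library. The list was chosen by name with values of these libraries known, and Igf2 was selected on its increase in control cells, among the largest of all genes. Mouse embryonic stem cells, labelled R1 and R1/E and kept on feeder cells before the experiment, were differentiated as embryoid bodies, floating aggregates in which cells of several lineages form. Control cells and cells with an Oct6 transgene switched on by doxycycline were each sequenced at day 2, day 4 and day 6. That gives 6 RNA-seq libraries, with 1 library per arm and day. A ChIP library of Oct6, the protein of Pou3f1, and its input came from Oct6-overexpressing cells labelled as day 4 of neural differentiation. The peak list is instead named with EB, which can be read as embryoid bodies, so the differentiation used is uncertain. Titles give doxycycline for the induced libraries only, whereas the treatment text can be read as doxycycline for both arms over 6 days. Whether the arms are the same line or clone is not stated. Effects of the drug, the line and the transgene therefore cannot be told apart. The medium is also uncertain, because titles carry an unexplained fbs prefix while the growth protocol is serum-free.

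An imprinted gene is transcribed mainly from the copy inherited from a single parent, and the copies are told apart by DNA methylation set in the germ line, which lies on the silent copy at some domains and on the active copy at others. Many such genes act on fetal growth: Igf2 is a growth factor, Igf2r a receptor that removes it, Cdkn1c an inhibitor of the cell cycle and Grb10 an inhibitor of insulin-type receptors. Igf2, Dlk1, Peg3, Mest and Plagl1 are known as paternally expressed, and H19, Igf2r, Meg3, Cdkn1c and, in most tissues, Grb10 as maternally expressed. The deposited values sum both copies, so imprinting itself was not measured.

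The 5 members that stood at least 2-fold higher in induced cells at day 2 were Plagl1, Mest, Peg3, Dlk1 and Cdkn1c, and sequence before their start sites is shown because they differed in the same direction. RefSeq promoter windows (GRCm38.p6) matched 8 of the 10 members, with 15 windows in all. The 250 bases before the start follow, 5′ to 3′ on the gene's strand, for Plagl1, Mest, Peg3 and Dlk1 (Cdkn1c had no entry), with CpG dinucleotides, the sites of DNA methylation, in capitals.
Plagl1, chr10:13090582-13090831, plus strand: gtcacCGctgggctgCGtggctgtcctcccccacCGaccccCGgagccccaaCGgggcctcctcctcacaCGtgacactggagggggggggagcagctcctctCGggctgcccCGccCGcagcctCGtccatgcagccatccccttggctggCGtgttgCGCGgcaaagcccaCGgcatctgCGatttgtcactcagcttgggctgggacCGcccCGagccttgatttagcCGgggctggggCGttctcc
Mest, upstream start, chr6:30733256-30733505, plus strand: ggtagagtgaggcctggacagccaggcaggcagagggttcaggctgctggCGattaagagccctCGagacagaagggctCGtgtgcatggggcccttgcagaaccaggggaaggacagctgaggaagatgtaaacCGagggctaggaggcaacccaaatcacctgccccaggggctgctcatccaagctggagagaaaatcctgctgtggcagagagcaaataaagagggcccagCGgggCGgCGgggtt
Mest, downstream start, chr6:30737800-30738049, plus strand: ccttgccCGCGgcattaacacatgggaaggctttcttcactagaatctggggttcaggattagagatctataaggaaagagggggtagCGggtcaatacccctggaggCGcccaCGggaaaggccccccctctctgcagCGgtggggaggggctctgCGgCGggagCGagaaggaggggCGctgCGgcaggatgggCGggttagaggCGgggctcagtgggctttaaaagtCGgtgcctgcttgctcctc
Peg3, chr7:6730420-6730669, minus strand: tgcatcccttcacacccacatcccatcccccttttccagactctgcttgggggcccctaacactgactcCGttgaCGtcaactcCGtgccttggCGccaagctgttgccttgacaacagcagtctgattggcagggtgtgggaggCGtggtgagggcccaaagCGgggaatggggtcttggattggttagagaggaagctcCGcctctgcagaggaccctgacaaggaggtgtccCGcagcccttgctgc
Dlk1, chr12:109452573-109452822, plus strand: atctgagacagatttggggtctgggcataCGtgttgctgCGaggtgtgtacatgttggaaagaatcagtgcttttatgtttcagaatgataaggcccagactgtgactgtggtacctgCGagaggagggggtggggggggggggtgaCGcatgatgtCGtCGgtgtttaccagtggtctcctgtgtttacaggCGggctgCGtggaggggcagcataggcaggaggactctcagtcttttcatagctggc
The Plagl1 window held 19 CpGs, more than in 80.3% of the 32817 RefSeq windows of that length. The downstream Mest start had 14, the upstream Mest start 7, Peg3 8 and Dlk1 8, and the median over all windows was 6. The POU octamer ATGCAAAT, read on both strands, was in none of the 15 windows of members and in 1.6% of all windows. The gene values below do not separate the starts of a gene.

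Members lie in several imprinted domains (mm9). Igf2 (chr7:149836673-149852721, minus strand) and H19 (chr7:149761434-149764048, minus strand) are neighbours, and Dlk1 (chr12:110691033-110701546, plus strand) and Meg3 (chr12:110779211-110809936, plus strand) are another such pair. Cdkn1c lies at chr7:150644255-150646955 on the minus strand and Peg3 at chr7:6656603-6683132 on the minus strand. Igf2r occupies chr17:12875272-12962530 on the minus strand, Grb10 chr11:11830511-11938686 on the minus strand, Mest chr6:30673547-30698457 on the plus strand and Plagl1 chr10:12810497-12851500 on the plus strand. Antisense genes overlap 4 members: Igf2as at Igf2, Airn at Igf2r, Copg2 at Mest and Gm17639 at Meg3. The sources used here do not say whether strand was kept, so reads of these pairs may be mixed.

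Depth was read from the steps of low FPKM values, and came to an estimated 22800000 to 49400000 fragments per library. H19 was the thinnest member, with an estimated 51 fragments in induced cells at day 4 (a counting error of 14%), and the other 9 members had an estimated 170 or more in each library. Pou3f1, the induced gene, had 64.3, 10.1 and 4.76 FPKM in the control libraries and 312, 222 and 86.8 in the induced ones, in order of day. Pluripotency markers were present throughout: the 8 genes summed to 1890, 1318 and 275 FPKM in control and 923, 1112 and 365 in induced cells over the same days. Of these 8, 3 were 2-fold lower and 0 higher in induced cells at day 2. At day 4, 4 were higher and 0 lower, and at day 6, 3 were higher and 0 lower. Differences are given on the log2(FPKM + 1) scale, which understates changes of low genes. The median arm difference over the genes measured was 0.17, 0.10 and 0.06 on the successive days. With 1 library per arm and day, a difference within a day has no replicate check.

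Igf2, the fetal insulin-like growth factor, had the widest range of the list. Its control FPKM was 3.56, 33.4 and 1182 on days 2, 4 and 6, and its induced FPKM was 5.16, 9.26 and 457. Both arms were low at day 2 and highest at day 6, and the induced library was the lower of its pair at day 4 and day 6. The control value at day 6 was 332-fold that at day 2, which ranked 3 among 12783 genes by log2 difference. That is the change that placed Igf2 in the list, and it is given as a description. In induced cells the day 6 value was 88.6-fold that at day 2, which ranked 3 among 13096 genes. By day 6 Igf2 ranked 51 by FPKM in control and 130 in induced cells, after 8881 and 8825 at day 2. The induced libraries differed from control by 0.43, -1.74 and -1.37, so that Igf2 was 3.60-fold and 2.58-fold lower on the last days.

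H19, the non-coding RNA that shares enhancers with Igf2, did not follow it in induced cells. Its FPKM was 1.18, 1.14 and 7.95 in control cells at days 2, 4 and 6. In induced cells it was 2.23, 0.886 and 1.03. The control library of day 6 stood apart, and the other 5 libraries lay between 0.886 and 2.23. At day 6 H19 was 7.74-fold lower in induced cells, a log2 difference of -2.14, the 43rd lowest of 12820 genes. Over the same libraries, induced Igf2 went from 5.16 to 457 FPKM while induced H19 went from 2.23 to 1.03.

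Igf2r, the receptor that carries Igf2 to lysosomes, had 13.5, 19.7 and 59.2 FPKM in control cells and 22.1, 16.0 and 30.9 in induced cells. The order of the arms turned between day 2 and day 4, with log2 differences of 0.67, -0.28 and -0.92. None of the 3 reached 2-fold.

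**Figure D1:**
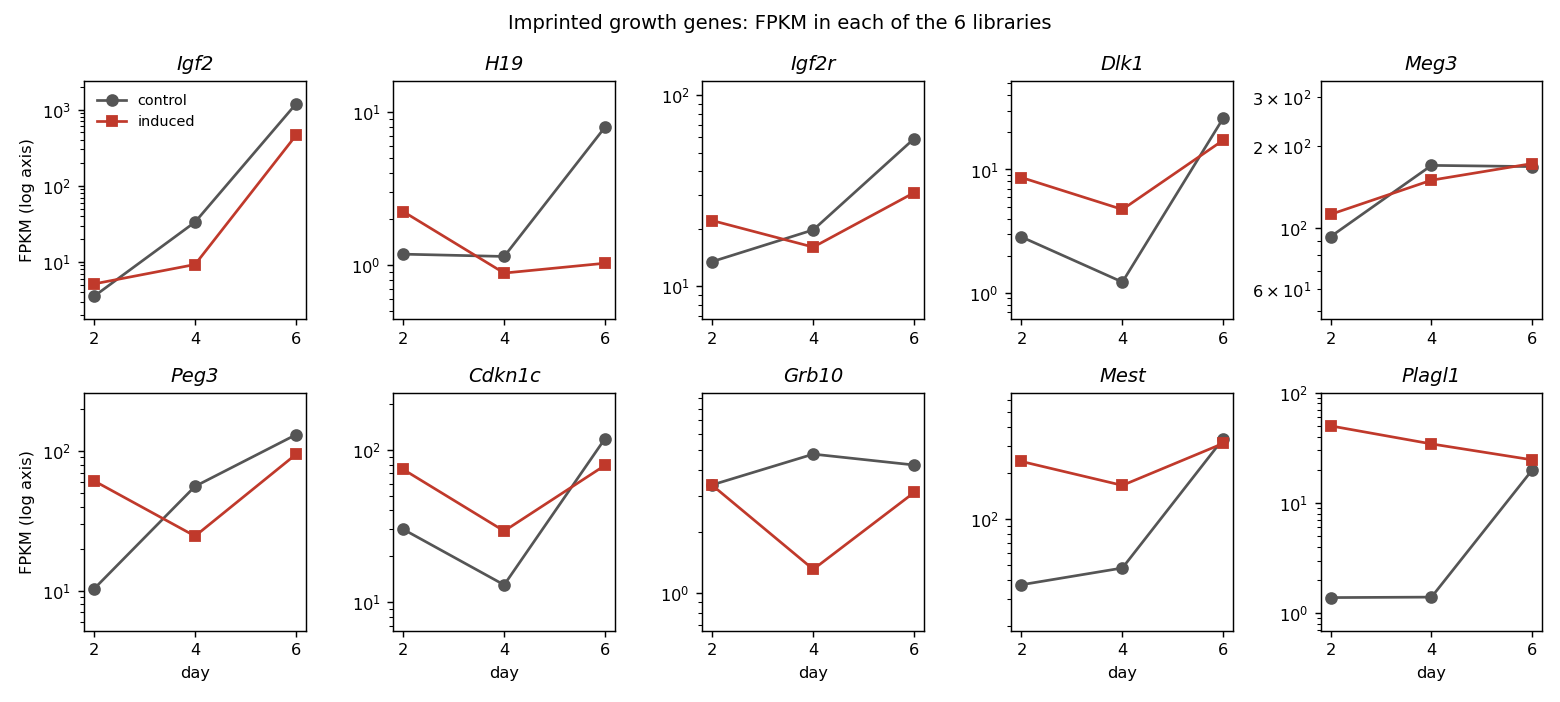
FPKM of the 10 members on log axes against day, with 1 point per library, control as grey circles and induced as red squares. Igf2 reached 1182 and 457 FPKM at day 6, while Plagl1 and Mest were already high at day 2 in the induced library.

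Plagl1, a zinc finger factor that regulates other imprinted genes and restrains the cell cycle, showed the largest difference between the arms in the list. Its control FPKM was 1.39, 1.4 and 20.0 on days 2, 4 and 6. In induced cells it was 50, 34.3 and 24.6. All 3 induced values lay above all 3 control values, and the arms came close only at day 6. The ratio was 36.0-fold at day 2 and 24.5-fold at day 4, with log2 differences of 4.42, 3.88 and 0.29. By this difference Plagl1 ranked 13 of 12586 genes on day 2 and 11 of 12678 on day 4.

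Mest, an alpha/beta hydrolase-fold protein of mesodermal and adipose growth, was also higher in induced cells on days 2 and 4, at a higher level. Its FPKM was 37.1, 47.7 and 334 in control and 237, 166 and 312 in induced cells. Control cells were at 47.7 or less until day 4, whereas all induced libraries were at 166 or more. The log2 differences were 2.64, 1.77 and -0.10. Copg2, which overlaps Mest on the opposite strand, differed by 0.42, 0.11 and 0.32, less than Mest at day 2 and day 4.

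Peg3, a large zinc finger protein, changed places between arms. Its FPKM was 10.3, 55.9 and 131 in control cells. The induced libraries had 61.1, 24.6 and 94.6. The induced library was 5.91-fold higher at day 2 and 2.27-fold lower at day 4, and the log2 differences were 2.45, -1.15 and -0.46.

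Dlk1, a transmembrane relative of the Notch ligands that holds back adipocyte differentiation, had 2.83, 1.22 and 26.1 FPKM in control cells. In induced cells it had 8.61, 4.74 and 17.3. In both arms the lowest value was at day 4 and the highest at day 6. The log2 differences were 1.33, 1.37 and -0.57. Meg3, the non-coding RNA of the same domain, had 93.1, 169 and 168 FPKM in control and 112, 150 and 172 in induced cells. Its arms differed by 0.27, -0.18 and 0.04, and the last value became -0.03 after scaling to a common median ratio. The non-coding Rian of that domain, with 110 to 203 FPKM, also stayed within 2-fold, at 0.31, -0.10 and -0.01.

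Cdkn1c, the CDK inhibitor p57, had 30.1, 13 and 118 FPKM in control cells. In induced cells it had 74.3, 29.3 and 79.1. Like Dlk1 it was lowest at day 4 in both arms, and its log2 differences were 1.28, 1.11 and -0.58. Grb10, the receptor-bound adaptor, stayed low, with 3.39, 4.79 and 4.24 FPKM in control and 3.37, 1.31 and 3.11 in induced cells. Its arms were nearly equal at day 2 (-0.01), and the induced library was 3.67-fold lower at day 4 (-1.33) and within 2-fold at day 6 (-0.35).

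**Figure D2:**
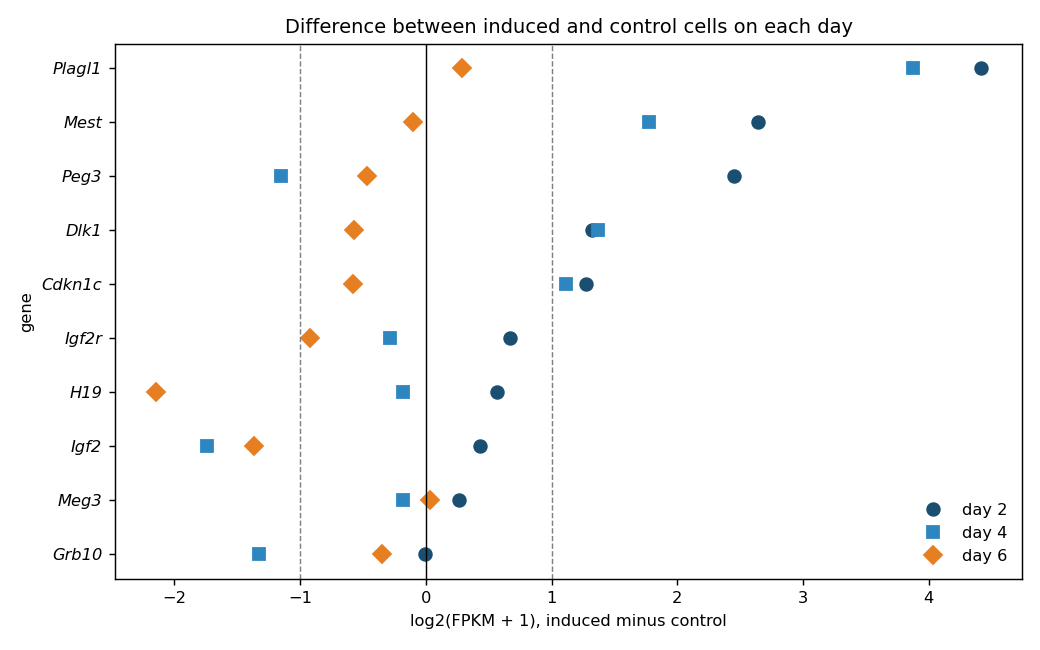
Difference of log2(FPKM + 1), induced minus control, for each member on days 2, 4 and 6, with 1 library per arm and day and dashed lines at 2-fold. Plagl1 stood at 4.42 and 3.88 on days 2 and 4 and at 0.29 on day 6, while H19 and Igf2 were past 2-fold lower at day 6.

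Counted over the list, 5 of 10 members stood 2-fold or more above control in induced cells at day 2 and 0 stood that far below. Over all genes the shares were 9.72% higher and 1.83% lower. At day 4, 4 members were higher (all genes 6.09%) and 3 were lower (2.11%), the latter being Igf2, Peg3 and Grb10. At day 6 none was 2-fold higher (3.37%) and Igf2 and H19, 2 of 10, were 2-fold lower (2.1%). Median differences of the members were 0.97, -0.18 and -0.52. No member was past 2-fold in the same direction on all 3 days. Few genes were: of 11790 measured on each day, 141 were higher and 10 lower on all 3. By the parent whose copy is known to be active, a grouping made after the values were seen, 4 of 5 paternally and 1 of 5 maternally expressed members were 2-fold higher at day 2. At day 4, 3 of the paternal class were 2-fold higher and 2 lower, and in the maternal class 1 was higher and 1 lower. At day 6, 1 of 5 in each class was 2-fold lower.

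A difference common to the days was tested with limma over the 6 libraries with day as a block, which measures spread between days, not between cultures. No member passed after Benjamini-Hochberg adjustment over 13661 genes, of which 3 passed (0.022%) and 2870 (21%) had an unadjusted p below 0.05. Plagl1 had an estimate of 2.86 ± 0.82 (SE, higher on 3 of 3 days) with a limma adjusted p of 0.173. The estimate for Mest was 1.44 ± 0.51 with a limma adjusted p of 0.213, and the estimate for Igf2, -0.89 ± 0.43, holds the control values that chose the gene and is given as a description. Without any 1 of the days no gene passed. The remaining 7 members had limma adjusted p values between 0.32 and 0.843.

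The interaction of arm and day asks whether the arms changed differently with time. In limma no gene passed (0%), and 1052 genes (7.7%) had an unadjusted p below 0.05. The estimates per day furthest from 0 among the members were those of Plagl1 at -1.03 ± 0.29, Peg3 at -0.73 ± 0.31, Mest at -0.69 ± 0.26 and H19 at -0.68 ± 0.23, with limma adjusted p values of 0.564, 0.666, 0.644 and 0.608. The value for Igf2 holds the control change that chose it and is not tested.

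Within control cells, members were mostly higher late. From day 4 to day 6, 8 of 10 were at least 2-fold higher (all genes 6.15%), with a median difference of 2.42 (all genes 0.09), and 0 were 2-fold lower (2.97%). These were Igf2, H19, Igf2r, Dlk1, Peg3, Cdkn1c, Mest and Plagl1. From day 2 to day 4 only Igf2 and Peg3 were 2-fold higher (9.63%) and Cdkn1c was 2-fold lower (4.65%). From day 2 to day 6 the same 8 were 2-fold higher, where 17.2% of genes were, 0 were 2-fold lower (6.73%), and Meg3 and Grb10 stayed within 2-fold, at 0.84 and 0.26. These control counts include Igf2, chosen for its control increase, and are a description.

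Within induced cells fewer members passed 2-fold between days, though these values too were known when the list was made. From day 2 to day 4 none was 2-fold higher (all genes 2.73%), and Peg3 and Cdkn1c were 2-fold lower (2.36%), at -1.28 and -1.31. From day 4 to day 6, 4 of 10 were 2-fold higher (2.98%): Igf2 by 5.48, Peg3 by 1.90, Dlk1 by 1.67 and Cdkn1c by 1.4. From day 2 to day 6 Igf2 alone was past 2-fold higher (7.22%) and none was past 2-fold lower (5.35%). Control and induced changes are set side by side without a test of their overlap.

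A slope per day fitted by limma to the 3 induced libraries left 1 residual degree of freedom. It called 5 of 13661 genes (0.0366%), while 3350 (24.5%) had an unadjusted p below 0.05. Igf2 had a slope of 1.55 ± 0.33 per day (limma adjusted p = 0.101) and Plagl1 one of -0.25 ± 0.04 (limma adjusted p = 0.0831), and no member passed. When the test was limited to the 10255 genes that reached an FPKM of 5 in some library, which left out Grb10, 1004 were called. Igf2 and Plagl1 both passed there, with limma adjusted p values of 0.0136 and 0.0231.

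**Figure D3:**
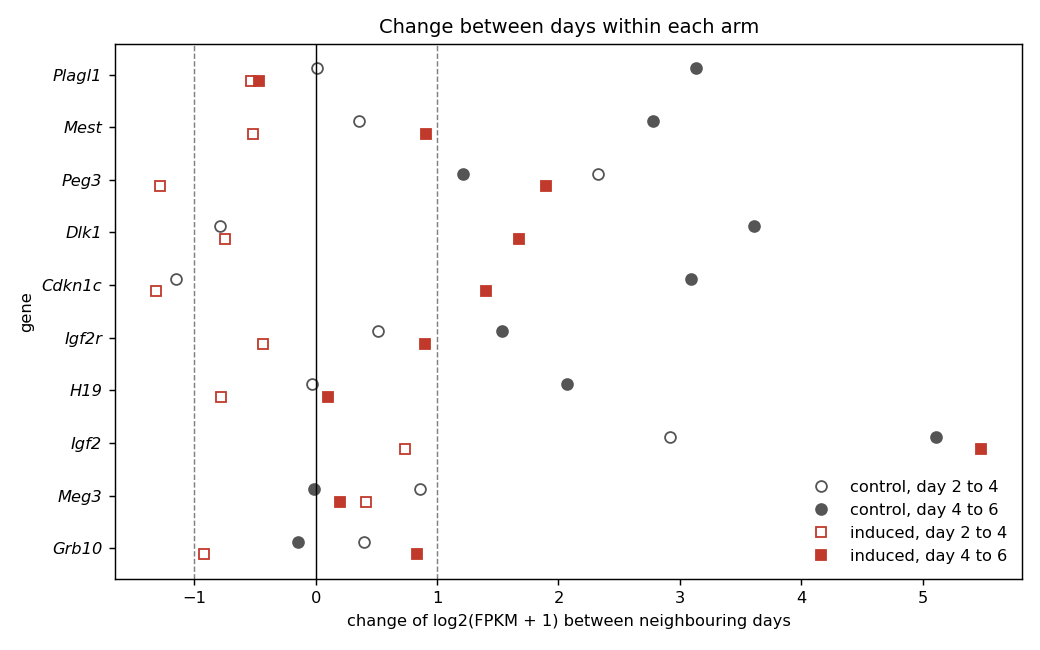
Change of log2(FPKM + 1) from day 2 to day 4 (open symbols) and from day 4 to day 6 (filled symbols) in control (grey circles) and induced cells (red squares), with dashed lines at 2-fold. In control cells 8 of 10 members lie past 2-fold higher from day 4 to day 6, and in induced cells 4 do.

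Other imprinted genes were taken from a list of 54, of which 52 were in the table and 40 had an FPKM of 1 or more in a day 2 library. At day 2, 9 of the 40 passed 2-fold above control in induced cells (22.5%, all genes 9.72%) and 2 below (5%, all genes 1.83%). At day 4, 8 of 40 were higher (20%, all genes 6.09%) and 3 lower (7.5%, all genes 2.11%). At day 6, 0 of 41 were higher (all genes 3.37%) and 2 lower (4.88%, all genes 2.1%). The medians were 0.32, 0.27 and 0.09. In limma's fit over the 3 days none of 43 passed in either direction.

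Klf14, a Kruppel-like factor from the domain of Mest, stood at 0.0327 FPKM in the control and 10.6 in the induced library of day 2, then at 0.175 and 1.53 on day 4. Its difference was 3.48 on day 2, 1.11 on day 4 and 0.10 on day 6. Of the genes beside Snrpn, Ndn, a MAGE protein of neurons, had 9.29, 14.9 and 49.2 FPKM in control and 22.1, 56.7 and 61.0 in induced cells, and Peg12 had 0.996 and 8.98 on day 4. Phlda2, a placental growth restrainer in the domain of Cdkn1c, differed in the opposite direction from Cdkn1c on days 2 and 4 and in the same direction on day 6, with 35.0, 64.5 and 82.4 FPKM in control and 15.9, 17.5 and 58.2 in induced cells. Zim1, the neighbour of Peg3, shared its pattern of signs, with differences of 1.3, -0.57 and -0.18.

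Airn, the antisense RNA at Igf2r, reached 7.44 FPKM in the control and 4.19 in the induced library of day 6 and had 0.213 or less in the other 4 libraries. Nnat, a membrane protein of developing brain, had 34.9, 49.7 and 364 FPKM in control and 48.3, 118 and 260 in induced cells. Asb4, a ubiquitin ligase adaptor, had 0.349, 9.52 and 13.6 FPKM in control and 0.282, 2.26 and 14.5 in induced cells.

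**Figure D4:**
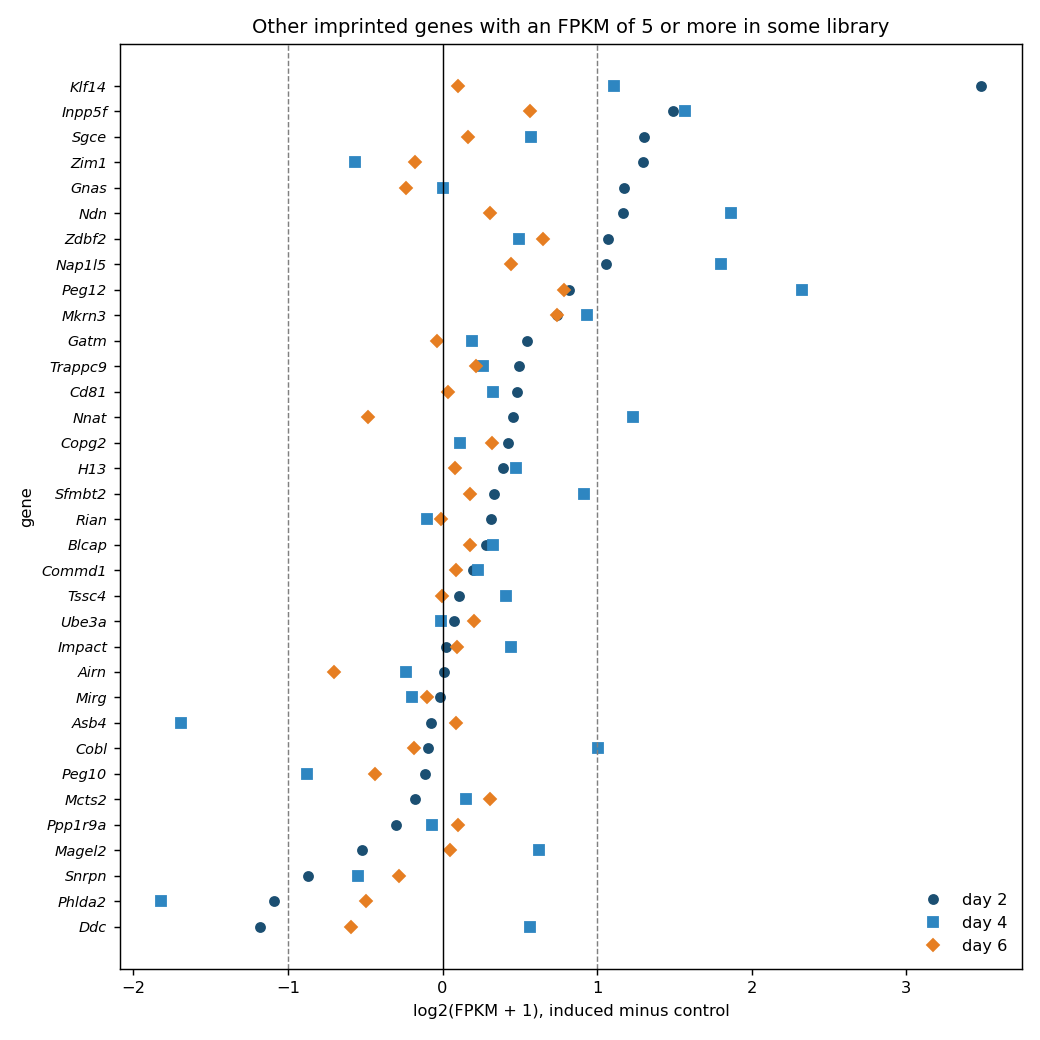
Difference of log2(FPKM + 1), induced minus control, on days 2, 4 and 6 for 34 other imprinted genes that reached 5 FPKM in some library, ordered by day 2, with dashed lines at 2-fold. Klf14 stands at 3.48 on day 2 and Phlda2 at -1.09, and by day 6 their values are 0.10 and -0.49.

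Of the 30 genes of the insulin-like growth factor pathway, 21 were measured at an FPKM of 1 or more at day 2, when 4 were 2-fold higher (19%, all genes 9.72%) and 0 lower (all genes 1.83%). At day 4, 1 of 21 was higher (4.76%, all genes 6.09%) and 2 were lower (9.52%, all genes 2.11%). At day 6, 0 of 22 were higher (all genes 3.37%) and 1 was lower (4.55%, all genes 2.1%). The medians on days 2, 4 and 6 were 0.38, -0.09 and -0.22, and none of 23 passed limma's fit over the days. The receptor Igf1r, through which Igf2 signals, had 3.55, 7.76 and 9.12 FPKM in control and 8.31, 8.16 and 7.86 in induced cells. The docking protein Irs2 differed by 1.71 at day 2, with 16.6 against 4.37 FPKM, and by -0.01 at day 4. The binding protein Igfbp5 had 0.492, 0.433 and 114 FPKM in control and 1.39, 2.43 and 14.5 in induced cells, a difference of -2.88 at day 6. Igfbp3 peaked at day 4 in both arms, at 147 and 60.1 FPKM. Igfbp4 reached 70.0 and 56.5 on day 6 (control and induced), and Igf2bp2, a protein that binds Igf2 mRNA, reached 52.9 and 45.6. Irs4 differed by -1.01 at day 4.

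Regulators of imprints and of growth genes were 17 in number, 16 of them measured. At day 2, 1 was 2-fold higher (6.25%, all genes 9.72%) and 3 were lower (18.8%, all genes 1.83%). At day 4, 3 were higher (18.8%, all genes 6.09%) and 1 was lower (6.25%, all genes 2.11%). At day 6 none passed 2-fold in either direction (all genes 3.37% and 2.1%). The medians on days 2, 4 and 6 were -0.20, -0.10 and 0.05, and none of 16 passed limma's fit. The chromatin protein Hmga2, a promoter of fetal growth, had 4.92, 47.8 and 137 FPKM in control and 25.6, 40.1 and 97.3 in induced cells, the order of arms seen for Peg3. Dnmt3l, a cofactor of de novo methylation, stood at 190 FPKM in the control and 55.2 in the induced library of day 2. Dnmt3b, a de novo methyltransferase, had 348 and 92.7. Dppa3, which protects methylation in the early embryo, had 2.0 and 10.5 on day 4, and Tet1, a demethylating enzyme, differed by -0.95 at day 2.

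Marker lists of cell types that embryoid bodies or feeder cells could supply were set beside the members. In bulk RNA, fewer cells of a type and less RNA per cell cannot be told apart. On days 4 and 6, when Igf2 was lower in induced cells, 11 and 9 of 14 visceral endoderm markers were 2-fold lower and none higher. Their sum without the abundant Apoe was 200 FPKM in control and 29.0 in induced cells on day 4, then 274 and 57.0 on day 6. At day 2, when Igf2 differed by 0.43, 3 of these markers were already 2-fold lower and 1 was higher. Their sum was then 181 FPKM in control and 396 in induced cells with Apoe, and 44.0 and 13.3 without it. Mesoderm markers were lower in 6 of 11 at day 4 (315 against 189). At day 6, 8 of 8 cardiac muscle markers (261 against 20.1), 5 of 7 blood markers (1550 against 163), 4 of 6 endothelium markers (48.1 against 28.1), 4 of 11 mesoderm markers (222 against 152) and 6 of 10 feeder fibroblast markers (274 against 89.8) were lower. None of 8 trophoblast markers was past 2-fold at day 4 or 6. The embryonic globins Hba-x and Hbb-y, both blood markers, were at 0 in both arms at day 4.

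At day 2 and day 4, when Plagl1 and Mest were higher in induced cells, 3 and 4 of 7 neuron markers and 2 and 5 of 8 neural progenitor markers were 2-fold higher, and 1 neural progenitor marker was 2-fold lower at day 2. At day 6, when Plagl1 and Mest differed by 0.29 and -0.10, 7 of 7 neuron markers were 2-fold higher (144 FPKM in induced, 34.3 in control cells). Summed neural progenitor markers were 111 in induced and 150 in control cells on day 2, and 117 and 57.8 on day 4. Without Sox2, the most abundant of them, the sums were 44.5 in induced and 14.8 in control cells on day 2. On day 4 they were 51.5 and 22.4. Summed neuron markers were 158 FPKM in induced and 83.2 in control cells on day 2, then 132 and 67.9 on day 4. Of the feeder fibroblast markers 3 of 10 were 2-fold higher at day 2, when their sum was 112 against 23.0, most of it from Col1a2 at 80.2 against 1.76. At day 4, 2 were higher and 2 lower, and Col1a2 alone had 30.4 and 1.0 FPKM. No feeder marker was at 0 in any library. The part of these cell types in the members' differences was not tested.

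**Figure D5:**
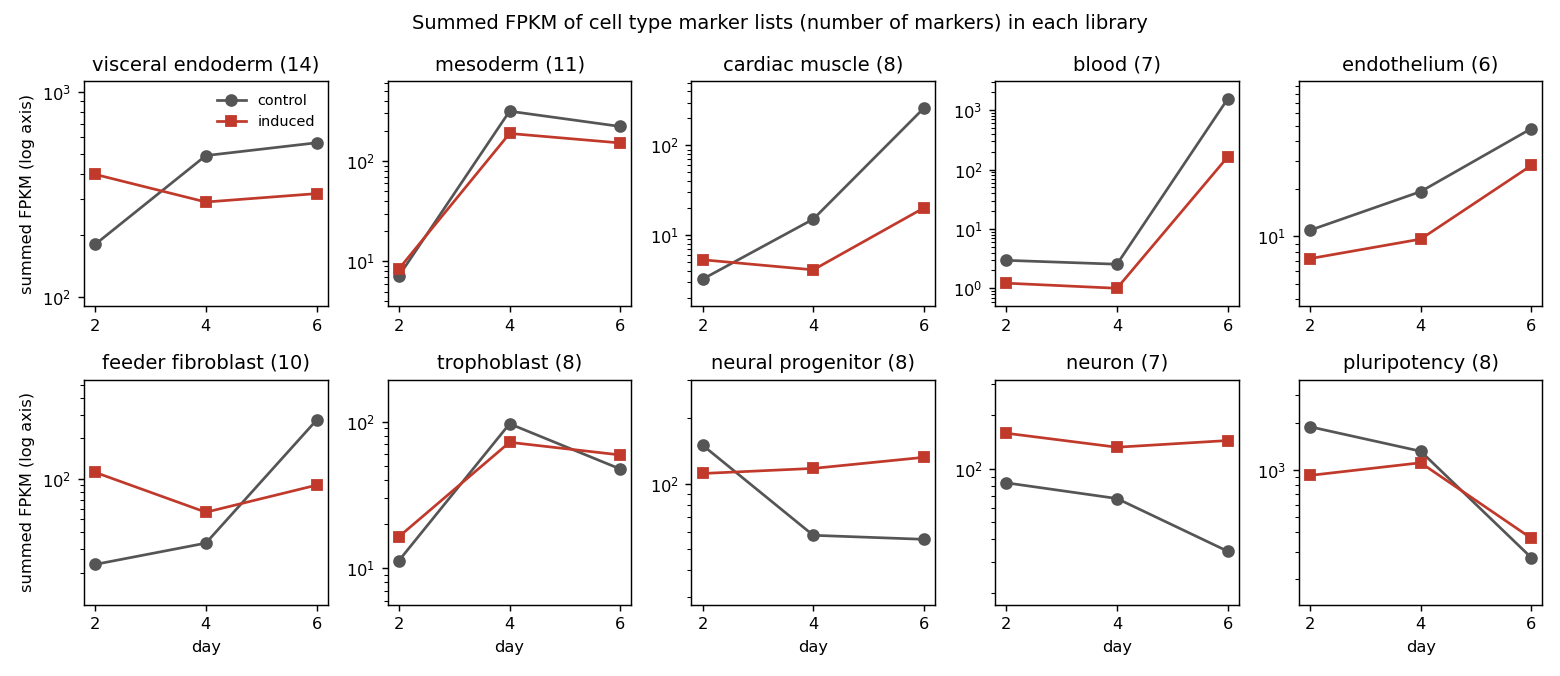
Summed FPKM of each marker list (log axes, number of markers in brackets) against day in control (grey circles) and induced cells (red squares), 1 point per library. The visceral endoderm sum rests largely on Apoe, the blood and cardiac sums of day 6 are lower in the induced library, and the neuron sum is higher on each day.

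Profiles most like those of Igf2 and H19 were looked up among the 7968 genes that reached 10 FPKM in some library, by Pearson's r of log2 values over the 6 libraries, which share days and arms. The 5 closest to Igf2 were Bmp5 (0.998), Igf2as (0.996), Tmem43 (0.996), Foxf1a (0.996) and Dlg1 (0.995). Igf2as lies antisense to Igf2, with 16.3 and 8.17 FPKM on day 6 (control and induced), so it may share reads with it. Bmp5, a BMP ligand, had 13.8 and 8.85 FPKM, and Foxf1a, a factor of lateral mesoderm, 13.2 and 7.53 at day 6. Those closest to H19 were Rbm22 (0.968), Ehd1 (0.966), Donson (0.950), Myl4 (0.950) and Plod2 (0.947). The size of a change does not enter r. Rbm22 stayed between 24.2 and 30.0 FPKM and Dlg1 between 26.4 and 36.9, whereas Myl4 ran from 0.586 to 43.6. Among members, r with Igf2 ran from 0.206 for Plagl1 to 0.907 for Igf2r, and was 0.574 for H19.

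Of the members, 1 of 10 had an Oct6 peak centre within 10 kb of its gene body, against 21.3% of 21586 annotated genes of the table. Among annotated genes with an FPKM of 1 or more the share was 27.8%. This was Grb10, with a 133 bp peak at chr11:11925870-11926002 (mm9), in an untranslated exon and 0.392 kb downstream of the nearest annotated start. Its score of 12.7 in the authors' list is above the list median of 11.4 and is shared by 1088 peaks. Grb10 was 3.67-fold lower in induced cells at day 4, the day number of the ChIP, for which the labels of the differentiation conflict. Igf2 (3.60-fold) and Peg3 (2.27-fold) were also lower that day, with nearest peaks 366 kb and 268 kb away. The members 2-fold higher at day 2 also had no peak centre within 10 kb. Their nearest peaks lay 20.2 kb from Cdkn1c, 29.8 kb from Mest, 77.2 kb from Plagl1, 128 kb from Dlk1 and 268 kb from Peg3. The nearest peak to Igf2 lay 366 kb away and that to H19 291 kb, that to Igf2r 147 kb, and Meg3 had one at 19.4 kb. Igf2 and H19 had the same nearest peak, as did Dlk1 and Meg3. No octamer ATGCAAAT was found in the peak nearest to any member, while 4.19% of 7965 peaks held it. With so few peaks and so low a share, its absence cannot be read as a difference. Of the other imprinted genes, 16 of 50 (32%) had a peak centre within 10 kb of the gene body. The shares were 21.3% over all annotated genes and 27.8% over those with an FPKM of 1 or more. Among the 16 was Klf14, the neighbour of Mest, with a peak 4.21 kb upstream of its start, at chr6:30913132-30913264. Its score of 11.4 is the list median.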

How the data were processed

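RNA of 6 libraries (control and induced cells at days 2, 4 and 6) and a list of Oct6 peaks from day 4 were used. The submitters' processing notes list the mouse genome build mm9 and name HOMER, Cuffdiff, Cufflinks 1.3.0 and TopHat 1.4.1. The authors deposited FPKM values as a table of gene symbols by library, and the peak list carries a score per peak, used only to describe peaks. Strand and multi-mapping are not given in the sources used here. Groups came from the sample labels.

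Values were taken as log2(FPKM + 1). A gene counted as 2-fold higher or lower where 1 of the 2 libraries had an FPKM of 1 or more and the values differed by 1 or more. limma 3.58.1 in R 4.3.3 (eBayes with trend, Benjamini-Hochberg adjustment at 0.05) was fitted to 13661 genes. The days stand in for replicates. Of the fits, only that of the arm difference was run on simulated data with planted differences. Its mean estimates were checked against the planted values. Relative depth came from the most frequent ratio of FPKM values below 0.3, and fragment numbers rest on annotated transcript lengths. Gene and peak positions used the NCBIM37 reference with GENCODE annotation, which held 95.7% of the table's symbols, and 7965 of 7979 peaks lay on its placed chromosomes and were used. Symbols were matched as written, with Mtap2 for Map2 and Tcfap2c for Tfap2c.

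The members and gene lists were chosen with earlier results of these data known. The text names all members, the 5 profiles closest to Igf2 and to H19, and per list up to 4 genes by largest arm difference and up to 4 by largest change from day 2 to day 6, among those that reached 5 FPKM. Rian, Copg2, Col1a2 and the peak at Klf14 were singled out after their values were seen. Alternatives were the pseudocount, the filter on low values, scaling, the fold threshold, the variance trend, the day block, each day left out, and the peak window and score. Python 3.11.15, numpy 2.4.6, pandas 2.3.3, pysam 0.24.0 and matplotlib 3.10.9 were used.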

Additional observations from a re-analysis of the deposited data

Results flagged for a closer look

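From day 2 to day 4 Peg3 moved in opposite directions in the arms, by 2.33 in control cells (10.3 to 55.9 FPKM) and by -1.28 in induced cells (61.1 to 24.6 FPKM) on the log2(FPKM + 1) scale. The difference has 1 library per arm and day and was not tested within that step.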

How the results depend on the processing

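Of the main results, 128 combinations of result and alternative kept their count within 1.5 times and 29 did not. The limma arm difference called 3 genes, against 1 with a pseudocount of 0.1, 0 with no filter on low values, 1 with an FPKM minimum of 5 and 7 after quantile normalisation. Leaving out each day gave 0 to 0 genes, and without the replicate block of day the count was 3. No member passed in any of these. The induced slope called 5 of 13661 genes, against 0 with a pseudocount of 0.1, with no filter, with median ratio scaling and without the trend. It called 1004 of 10255 with an FPKM minimum of 5 and 55 of 13661 after quantile normalisation. With both arms in one fit the slope is common to the arms, a different quantity, and 2065 of 13661 genes were called. In that last fit, which holds the control change that chose Igf2, 1 member passed. With the minimum of 5, 2 did, and Grb10 was not tested. The interaction called 0 genes under each of the alternatives run.

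Arm estimates that changed sign were those of Meg3 (0.04, and -0.070 with median ratio scaling) and, with each day left out in turn, H19 (-1.16 to 0.19), Igf2r (-0.60 to 0.19), Meg3 (-0.071 to 0.15) and Peg3 (-0.81 to 0.995). H19 and Igf2r turned positive without day 6, and Peg3 and Meg3 negative without day 2. Plagl1 ran from 2.08 to 4.15 and Mest from 0.84 to 2.21.

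Counts of members by day between arms were within 1.5 times under the alternatives run. Between days, the control day 2 to day 4 count of lower members was 1, and 2 with a pseudocount of 0.1, at a 1.5-fold threshold and after quantile normalisation. For induced cells the day 2 to day 4 lower count was 2, and 4 with a pseudocount of 0.1 and 5 at 1.5-fold, where the higher count went from 0 to 1. From day 4 to day 6 the induced higher count was 4, and 7 at 1.5-fold. From day 2 to day 6 the induced higher count was 1, and 4 at 1.5-fold, and the lower count was 0, and 2 with a pseudocount of 0.1 and at 1.5-fold, and 1 with median ratio scaling and after quantile normalisation. With a window of 50 kb, 4 of 10 members had a peak, against 1, where 38.6% of all annotated genes had one. Of those with an FPKM of 1 or more, 46.6% had one. The cause was not tested for these.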
